A study of Mus musculus with 10 samples.

Results

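The collagen genes were taken as the protein-coding mouse genes whose symbol is Col, a number, a and a number (Col1a1 to Col28a1). There were 44 of them among the 55414 gene IDs counted in each library, and 42 had enough counts to be tested. Total RNA had been sequenced in bulk from the trigeminal ganglion, whose neurons serve touch, pain and temperature of the face, in C57Bl6 mouse embryos at E13.5. The knockout group was Prdm12-/- (5 libraries, replicates 16, 29, 42, 49 and 50) and the control group was Prdm12+/+ (5 libraries, replicates 22, 24, 32, 35 and 45). All libraries of both groups also carry Sox10 Venus+ in the genotype label, while only the wild-type titles name Venus. Prdm12 encodes a PRDM-family zinc finger protein needed for nociceptor development, and the series title calls its loss constitutive. The comparison therefore asks which collagen transcripts differ in the ganglion when the embryo lacks the gene throughout, not in one cell type. The labels name dissection and no cell sorting, and they do not say that each library is a separate embryo. P-values then measure only the spread between these samples, which may be technical. Sample titles also begin with a different letter in each genotype, so any handling that the titles mark cannot be told apart from genotype.

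Collagens are secreted or membrane-bound proteins built from chains wound into a triple helix. Fibrillar collagens form the cross-banded fibrils of connective tissue, type IV chains form the sheet-like network of basement membranes, and types II, IX and XI form the fibrils of cartilage. In a ganglion, fibroblasts, vessels and Schwann cell lineages lay down fibrils and basement membranes, while neurons make a few transmembrane collagens. In a bulk sample, fewer cells of a type and less RNA per cell cannot be told apart.

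Prdm12 itself was at 8.74 to 42.7 CPM in knockout libraries and at 74.3 to 264 CPM in wild-type libraries (log2 fold change -3.32, adjusted p = 0.0156). CPM are counts scaled to a common library total with TMM factors. Totals were 3258008 counts in knockout 49, 13603690 in knockout 29 and 27308327 to 33556002 in the other libraries, so the smallest collagen values are least certain in knockout 49, where 3 counts equal 0.869 CPM. In wild-type 32 and 35 the summed mesenchyme markers were at 119 and 158 CPM, against 685 to 1125 CPM in the other 3 wild types and 278 to 1231 CPM in the knockouts. Knockout 29 held 3764 CPM of Sox10, a glial transcription factor, against 390 to 844 CPM in the other knockouts. Over all genes, edgeR's quasi-likelihood test called 84 of 18005 at an adjusted p under 0.05.

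Collagen transcripts made up 0.762% to 2.03% of all counts in the knockout libraries and 0.270% to 1.12% in the wild types. The lowest shares, 0.270% and 0.321%, belonged to wild-type 32 and 35. Knockout 42 had the highest. Per kilobase of exon and averaged over all libraries, the highest collagen was Col1a1, the main chain of type I collagen. Its mean was 250.5 CPM per kb in knockouts and 153 in wild types. Col3a1, the chain of type III fibrils, followed at 214 and 105 CPM per kb, and Col4a1, a chain of the widespread basement membrane network, at 136 and 66.2. Col1a2 was at 116 and 73.2 CPM per kb and Col4a2 at 99.5 and 46.5. This order depends on the annotation, since all annotated exons of a gene were merged. The lengths were 6563 bases for Col1a1, 9816 for Col3a1 and 12426 for Col1a2. By share of collagen CPM, with no length used, Col3a1 led at a mean of 15.4%, ahead of Col1a1 at 12.3% and Col1a2 at 11.3%. The 3 collagens with the largest shares in each library together held 34.997% to 48.95% of its collagen CPM. They were not the same genes in every library. In wild-type 32 and 35 they were Col3a1, Col4a1 and Col4a2, without either type I chain. At the low end, Col10a1, the collagen of hypertrophic cartilage, had 50 counts over all libraries and Col6a5 had 97, and neither was tested.

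Between genotypes, 1 of the 42 collagens tested was called, Col28a1, against 0.467% of all genes. It fell. None was called higher, against 0.0944% of all genes, while 12 had an unadjusted p under 0.05 with higher knockout means (6.4% of all genes did). DESeq2 called 7 of 44 collagens higher, against 354 of the 39450 genes it fitted. Limma voom, whose sample weights were highest among the wild types in 32 and 35, called 14 of 42 higher, against 1264 of 18005 genes. In all, 15 collagens had an unadjusted p under 0.05, against 13.1% of all genes, and for 3 of them the knockout mean was lower, against 6.73%. Knockout means were on the higher side for 31 of 42, against 46.3% of all genes, for 24 of 42 without knockout 42 and for 29 of 43 tested without wild-type 32 and 35. The median log2 fold change was 0.50 over the collagens and -0.03 over all genes, and it was 0.12 over the collagens without wild-type 32 and 35. Log2 fold changes reached 1 or more for 10 collagens, against 3.62% of all genes. In 3 collagens, Col4a4, Col4a5 and Col4a6, every knockout library lay above every wild type, against 1.29% of all genes. In Col28a1 every knockout lay below, against 2.92%, so 4 collagens had groups without overlap, against 4.21% of all genes. The plot of log2 fold changes by class shows 5 of the 6 type IV chains and types XV, XVIII and VII on the positive side, and cartilage collagens around 0.

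**Figure D1:**
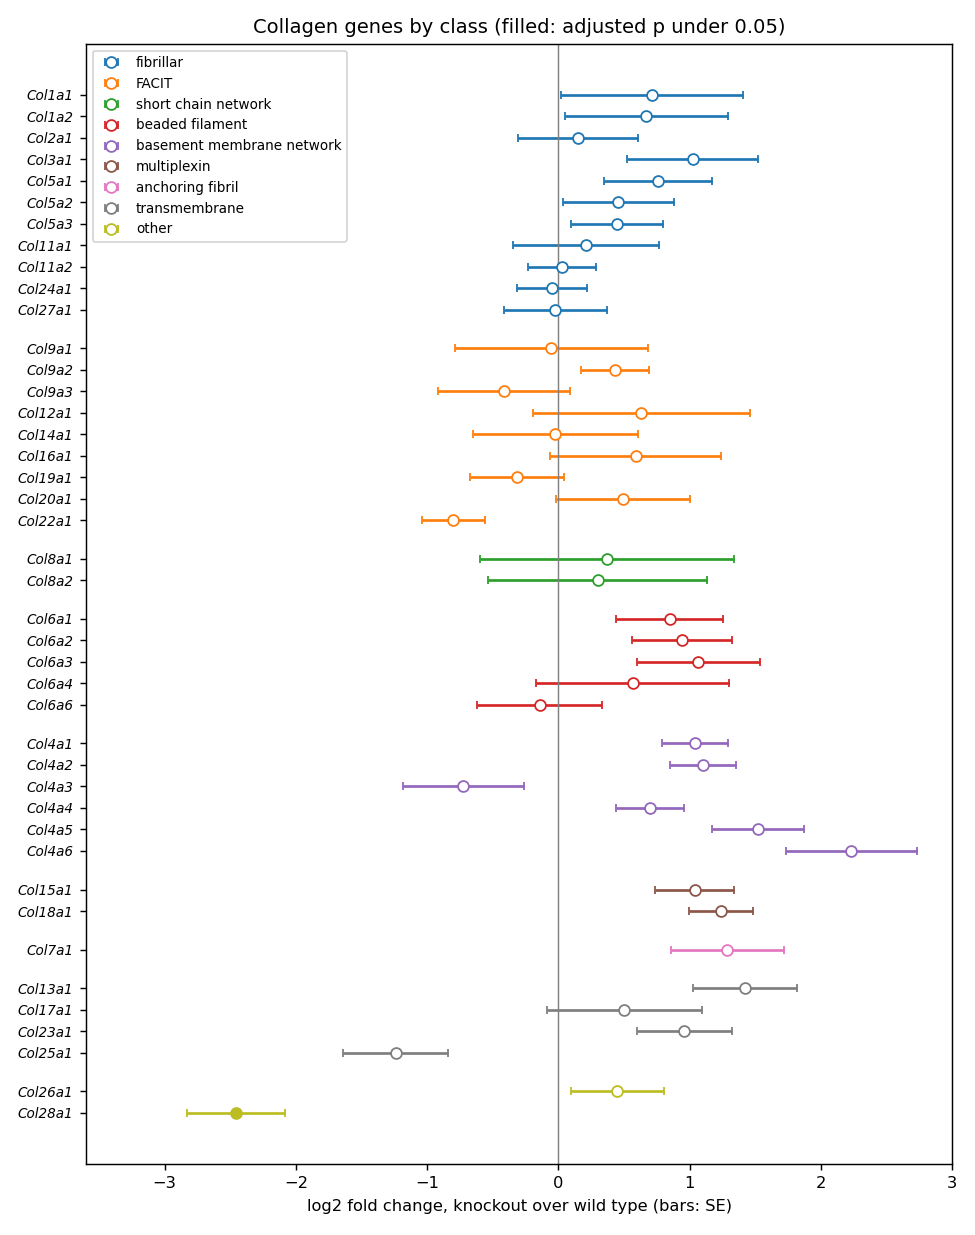
Log2 fold change (knockout over wild type, x axis) of the 42 collagen genes tested, grouped by class, with bars for the standard error. The 1 filled point, Col28a1 at -2.45, passed an adjusted p of 0.05, and open points did not.

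Col28a1 (ENSMUSG00000068794) encodes the type XXVIII chain, a collagen with von Willebrand factor domains known from basement membranes around Schwann cells in peripheral nerve. It was at 13.55, 20.3, 55.9, 37.8 and 34.1 CPM in wild-type 22, 24, 32, 35 and 45. In knockout 16, 29, 42, 49 and 50 it was at 5.51, 4.41, 8.46, 3.76 and 6.67 CPM. The groups did not overlap, and the highest knockout was below the lowest wild type. Mean levels were 5.76 ± 1.87 CPM in knockouts and 32.3 ± 16.5 CPM in wild types (SD, n = 5 each). The log2 fold change was -2.45 (SE 0.37, adjusted p = 0.0164), a 5.48-fold lower level. The counts behind it were 684 over the knockouts and 4731 over the wild types. The call was lost without knockout 49 (adjusted p = 0.0561), knockout 50 (0.0602) or wild-type 35 (0.0527), and without wild-type 32 and 35 together (log2 fold change -1.90, adjusted p = 0.110). DESeq2 (adjusted p = 6.66e-08) and limma voom (0.0083) called it too. Among the wild types it was highest in 32 and 35, the pair with the lowest fibrillar collagens. The summed glial markers there were at 2200.5 and 2484 CPM, against 1322 to 2380 CPM in the other wild types. In the knockouts these markers summed to 1352 to 5045 CPM, with the highest sum in knockout 29. The part of these markers in the result was not tested. The 250 bases before a RefSeq start of Col28a1 (GRCm38.p6, chr6:8192618-8192867, minus strand) are printed because this gene is the collagen that passed the test. In the sequences printed here, capitals mark 3 short motifs on either strand, the GC box letters GGGCGG, the box of letters CCAAT, and the TATA box letters TATAAA, and this window holds none of them:

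Col28a1: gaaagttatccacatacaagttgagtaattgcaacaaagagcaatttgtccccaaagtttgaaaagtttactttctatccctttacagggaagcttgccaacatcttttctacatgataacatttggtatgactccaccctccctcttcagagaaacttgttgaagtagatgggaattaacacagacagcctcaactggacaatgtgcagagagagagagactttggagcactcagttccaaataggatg

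Col25a1, the type XXV chain and a transmembrane collagen of neurons that takes part in motor axon growth into muscle, had the next most negative fold change. It was at 24.2, 17.2, 22.6, 12.7 and 18.9 CPM in knockout 16, 29, 42, 49 and 50 and at 93.6, 36.7, 19.3, 22.02 and 56.2 CPM in wild-type 22, 24, 32, 35 and 45. Groups overlapped, since wild-type 32 and 35 lay within the knockout range and the other 3 wild types above it (log2 fold change -1.24, SE 0.40, adjusted p = 0.233). Summed neuronal markers were at 1903 to 5172 CPM in knockouts and 2991 to 5139 CPM in wild types, and highest among the wild types in 32 and 35. All 6 neuronal markers had negative log2 fold changes, with a median of -0.51. Of them, 3 had unadjusted p-values under 0.05 with lower knockout means (6.73% of all genes did), and none was called. Summed muscle markers were at 98.5, 17.0, 3.85, 9.87 and 46.6 CPM in wild-type 22, 24, 32, 35 and 45 and at 8.42 to 36.8 CPM in knockouts, highest and lowest among the wild types in the same libraries as Col25a1. Their part in the result was not tested. Col22a1, a FACIT collagen of muscle and tendon junctions, was at 44.5, 50.1, 47.5, 32.7 and 69.7 CPM in knockout 16, 29, 42, 49 and 50 and at 63.3, 61.4, 120, 109 and 74.4 CPM in the wild types in the same order as above (log2 fold change -0.80, SE 0.24, adjusted p = 0.202). Only knockout 50 reached into the wild-type range. Col4a3, a chain of mature kidney basement membrane, had 94 counts in all, too few to read (log2 fold change -0.72, adjusted p = 0.509).

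Of the 6 type IV chains, 5 had unadjusted p-values under 0.05 with higher knockout means (6.4% of all genes did), and none passed the adjusted threshold. Col4a1 was at 536, 1113, 1088, 784 and 1562 CPM in knockout 16, 29, 42, 49 and 50 and at 555, 508, 416, 455 and 537 CPM in wild-type 22, 24, 32, 35 and 45. Only knockout 16 was within the wild-type range. The log2 fold change was 1.04 (SE 0.25, adjusted p = 0.110). Its partner Col4a2, which joins Col4a1 in the most widespread type IV trimer, was at 349, 781, 721, 505 and 935 CPM in the knockouts and at 369, 328, 238, 266 and 337 CPM in the wild types (log2 fold change 1.10, SE 0.25, adjusted p = 0.0933). Knockout 16 again lay inside the wild-type range and the other knockouts above it. Col4a5 and Col4a6, the chains of the smooth muscle and epithelial network, were lower in level and further apart between groups. Col4a5 was at 63.7, 55.2, 107, 118 and 226 CPM in the knockouts and at 46.0, 46.5, 33.0, 28.1 and 45.4 CPM in the wild types (log2 fold change 1.52, SE 0.35, adjusted p = 0.0935). Col4a6 was at 15.3, 11.02, 22.4, 19.7 and 76.8 CPM against 5.81, 8.89, 4.92, 4.20 and 7.25 CPM (log2 fold change 2.23, SE 0.50, adjusted p = 0.0841). For both, every knockout was above every wild type, and knockout 50 was highest. Without knockout 50 the log2 fold change of Col4a6 was 1.46. Col4a4 had the same order at 1.66 to 3.13 CPM in knockouts and 1.00 to 1.55 CPM in wild types (log2 fold change 0.70, adjusted p = 0.299), from 421 counts in all. DESeq2 called Col4a1, Col4a2, Col4a5 and Col4a6 higher. Summed over the class, type IV was at 966 to 2802 CPM in knockouts and 693 to 977 CPM in wild types, with knockout 16 alone inside the wild-type range.

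Col4a1 and Col4a2, and likewise Col4a5 and Col4a6, are neighbours on opposite strands. The RefSeq starts of Col4a1 (minus strand) and Col4a2 (plus strand) lie 21 bases apart, at chr8:11312805-11312826 (GRCm38.p6), with the first bases of both transcripts overlapping. The bases before each of these starts thus lie within the other gene and are not printed. The starts of Col4a5 and Col4a6 are 1343 bases apart and point away from each other. The 250 bases before each are printed because these 2 chains had the most positive fold changes of the collagens (Col4a5 chrX:141475169-141475418, plus strand, and Col4a6 chrX:141474077-141474326, minus strand):

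Col4a5: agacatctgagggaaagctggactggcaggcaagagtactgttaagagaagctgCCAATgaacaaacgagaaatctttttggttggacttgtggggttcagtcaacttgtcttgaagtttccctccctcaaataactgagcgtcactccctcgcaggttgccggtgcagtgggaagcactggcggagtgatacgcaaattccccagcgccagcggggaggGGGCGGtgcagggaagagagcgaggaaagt
Col4a6: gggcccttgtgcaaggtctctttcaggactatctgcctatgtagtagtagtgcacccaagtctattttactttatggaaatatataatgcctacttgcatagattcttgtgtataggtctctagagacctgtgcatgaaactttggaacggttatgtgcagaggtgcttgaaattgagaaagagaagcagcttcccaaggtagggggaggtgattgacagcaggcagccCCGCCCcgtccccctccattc

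Capitals are as above, with reverse complements in capitals too (CCGCCC of the GC box, for example). Of the 38 RefSeq promoter entries that 35 collagen genes had, 22 (57.9%) hold GGGCGG in either strand, against 32.7% of all 32851 entries. CCAAT is in 13 (34.2%), against 33.8%, and TATAAA is in 5 (13.2%), against 12.4%. A match describes the letters only.

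Col18a1 and Col15a1 encode the multiplexins, which bind basement membranes. Col18a1 was at 208, 465, 433, 427 and 443 CPM in knockout 16, 29, 42, 49 and 50 and at 172, 195, 114, 136 and 220 CPM in the wild types (log2 fold change 1.24, SE 0.24, adjusted p = 0.0558). It overlaps the coding gene Slc19a1 in the annotation, so some reads could belong to either. Only knockout 16 was near the wild types, between the 2 highest of them, and the fit without it called the gene (adjusted p = 0.0188). Col15a1 was at 52.5, 133, 120, 72.7 and 81.1 CPM against 64.3, 24.7, 34.99, 43.0 and 56.8 CPM, with overlap of knockout 16 alone (log2 fold change 1.04, SE 0.30, adjusted p = 0.188). Col7a1, whose anchoring fibrils tie epithelial basement membrane to the tissue beneath, was at 8.03, 21.5, 10.3, 6.95 and 37.0 CPM against 8.61, 5.02, 7.76, 5.84 and 7.46 CPM, with knockout 29, 42 and 50 above all wild types (log2 fold change 1.29, adjusted p = 0.250). Col13a1, a transmembrane collagen of the neuromuscular junction, was at 15.6, 21.6, 45.1, 27.8 and 46.0 CPM against 18.1, 10.1, 5.89, 6.55 and 17.7 CPM. Only knockout 16 was inside the wild-type range (log2 fold change 1.42, SE 0.40, adjusted p = 0.171). Col23a1, another transmembrane collagen, had a log2 fold change of 0.96 (adjusted p = 0.299), and Col17a1 of hemidesmosomes was below 4 CPM in every library.

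**Figure D2:**
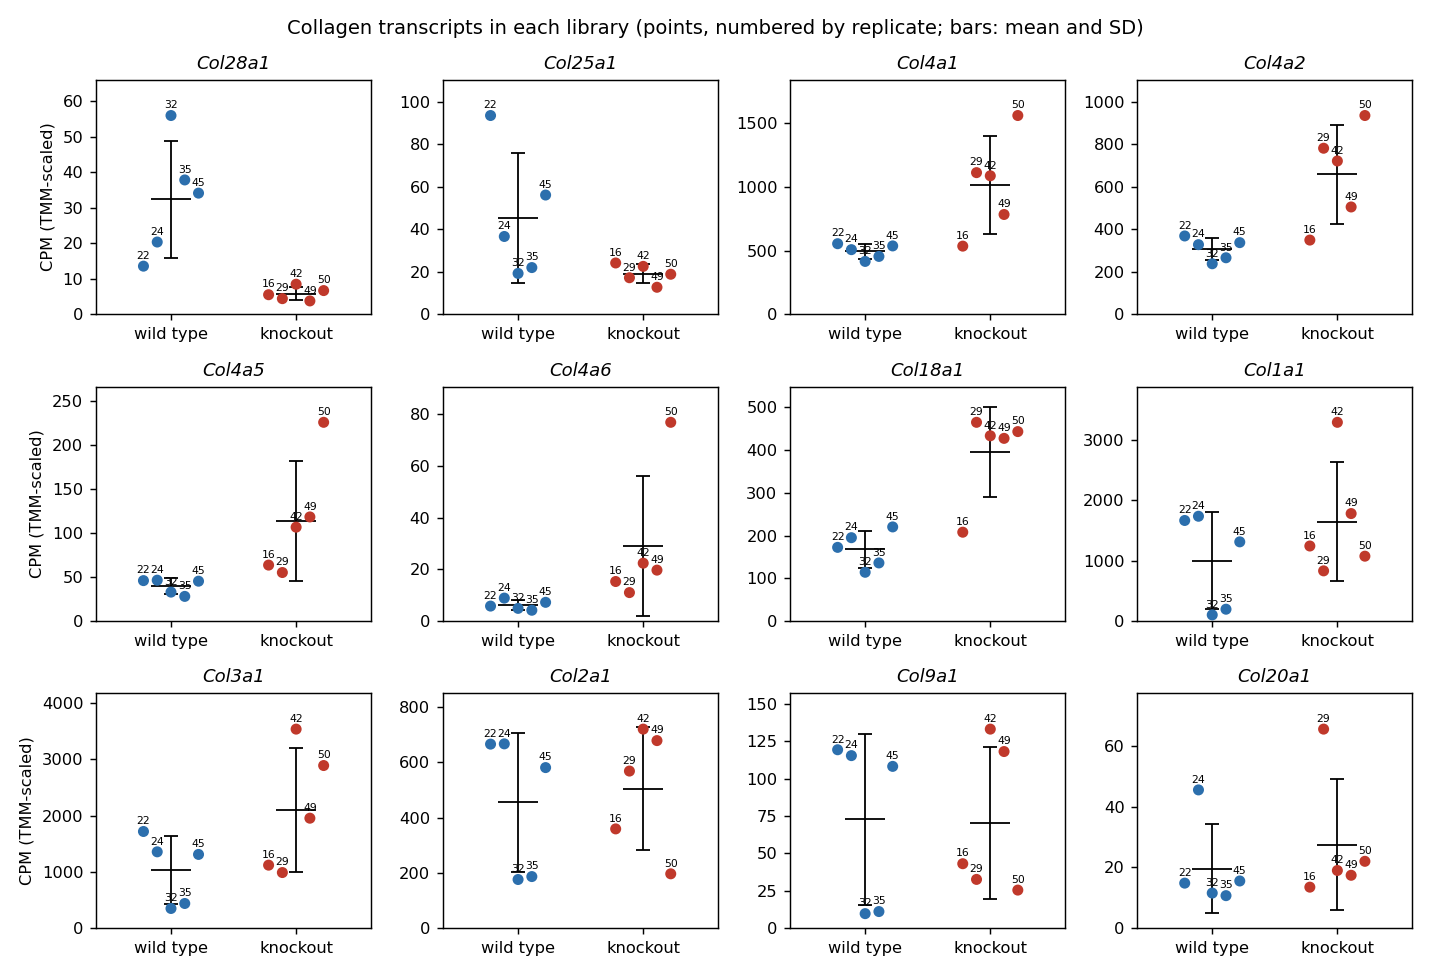
CPM (y axis, linear from 0) of 12 collagen genes in wild-type and knockout libraries, each point 1 library with its replicate number, with mean and SD bars. Col28a1 lies at 3.76 to 8.46 CPM in knockouts, below all wild types, while Col1a1, Col3a1 and Col9a1 are lowest in wild-type 32 and 35.

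Endothelial markers also had higher knockout means. Their summed level was 315 to 788 CPM in knockouts and 169 to 397 CPM in wild types. All 5 had unadjusted p-values under 0.05 with higher knockout means (6.4% of all genes did), none below 0.120 adjusted. Cdh5, the vascular cadherin, averaged 193 ± 76.6 CPM in knockouts and 85.5 ± 38.9 CPM in wild types. Pericyte markers were at 128 to 300 CPM and 59.3 to 155 CPM. The part of either cell type in the type IV, XV and XVIII values was not tested. Of the 15 basement membrane partners, the laminin, nidogen and proteoglycan genes, 9 had unadjusted p-values under 0.05 with higher knockout means (6.4% of all genes did), none was called, and the median log2 fold change was 0.75. Agrn was at 1285 ± 441 CPM in knockouts and 1435 ± 598 CPM in wild types, Nid1 at 519 ± 163 and 322 ± 58.6 CPM, and Lamb1 at 430 ± 122 and 299 ± 12.9 CPM. Lama1, Lamc3 and Nid2, chosen after their values were seen, were the partners whose knockouts all exceeded the wild types, as in 1.29% of all genes (adjusted p = 0.0587, 0.0827 and 0.0988). Without wild-type 32 and 35, log2 fold changes of Col4a1, Col4a2 and Col18a1 were 0.98, 0.99 and 1.06, with adjusted p = 0.540, 0.489 and 0.338.

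Of the 11 fibrillar collagens, 9 had a positive log2 fold change, with a median of 0.45 and a wide spread, and none had an unadjusted p under 0.05. Col1a1 was at 1243, 832, 3290, 1780 and 1075 CPM in knockout 16, 29, 42, 49 and 50 and at 1665, 1735, 103, 197 and 1312 CPM in wild-type 22, 24, 32, 35 and 45. The mean of wild-type 32 and 35 was 10.5-fold below that of the other wild types, and those others lay within the knockout range (log2 fold change 0.71, SE 0.69, adjusted p = 0.665). Without these 2 libraries the log2 fold change was 0.11. Col1a2 followed at 1061, 771, 2566, 1393 and 1445 CPM against 1568, 1609, 142, 203 and 1023 CPM (0.67, SE 0.62, adjusted p = 0.648, or 0.09 without the pair). Col3a1 was at 1117, 985, 3537, 1952 and 2889 CPM against 1716, 1354, 346, 435 and 1308 CPM (1.02, SE 0.50, adjusted p = 0.402, or 0.57). Col5a1, a chain of type V that nucleates fibrils, was at 272, 391, 671, 425 and 310 CPM against 389, 340, 83.2, 117 and 293 CPM (0.76, SE 0.41, adjusted p = 0.448, or 0.33). In these 4 genes wild-type 32 and 35 were the lowest, and knockout 42 was the highest. Col5a2, the other main type V chain, was at 258 to 789 CPM in knockouts and 128 to 568 CPM in wild types (0.46, adjusted p = 0.650, or 0.04). Col5a3 (0.45), Col24a1 (-0.05) and Col27a1 (-0.02) were at lower levels, with knockout means of 10.8, 19.8 and 71.0 CPM and wild-type means of 7.97, 20.5 and 72.2 CPM. The summed fibrillar level was 4048 to 12224 CPM in knockouts and 1160 to 7058 CPM in wild types, with mesenchyme markers as given above. Their part in the result was not tested.

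The 250 bases before the RefSeq start of Col1a2 (GRCm38.p6, chr6:4505368-4505617, plus strand) are printed as an example of a fibrillar collagen promoter. They hold 2 GGGCGG and 1 CCAAT:

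Col1a2: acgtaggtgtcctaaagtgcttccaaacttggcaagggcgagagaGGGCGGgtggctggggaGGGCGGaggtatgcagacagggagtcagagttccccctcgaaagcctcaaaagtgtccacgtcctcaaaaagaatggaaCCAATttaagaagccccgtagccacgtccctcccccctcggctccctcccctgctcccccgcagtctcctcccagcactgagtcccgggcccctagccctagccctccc

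Type VI collagen, the beaded filaments around cells, had a similar library pattern. Col6a1 was at 170, 192, 360, 226 and 337 CPM in knockout 16, 29, 42, 49 and 50 and at 217, 209, 48.2, 67.6 and 172 CPM in the wild types (log2 fold change 0.85, SE 0.41, adjusted p = 0.399). Wild-type 32 and 35 were again lowest, and the others overlapped the knockouts. Col6a2 and Col6a3 had log2 fold changes of 0.94 and 1.07 (adjusted p = 0.332 and 0.364). Col6a4 and Col6a6 stayed below 7 CPM in every library, with log2 fold changes of 0.56 and -0.14. That of Col6a4 was -0.56 without knockout 16 and 1.176 without wild-type 45.

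For the cartilage collagens the median log2 fold change was 0.09, and none of the 6 tested had an unadjusted p under 0.05. Col2a1, the main cartilage fibril chain, was at 359, 569, 721, 679 and 196 CPM in knockout 16, 29, 42, 49 and 50 and at 666, 667, 176, 186 and 581 CPM in the wild types. The groups covered the same range, and the log2 fold change was 0.15 (SE 0.46, adjusted p = 0.910). Without wild-type 32 and 35 it was -0.29, with the sign turned. Col9a1, a chain of the type IX molecule on the surface of cartilage fibrils, was at 43.0, 32.5, 133, 118 and 25.3 CPM against 119, 115, 9.56, 10.96 and 108 CPM (log2 fold change -0.05, SE 0.74, adjusted p = 0.983, or -0.67 without the pair). Col11a1, a type XI chain in the core of those fibrils, was at 124, 78.5, 390, 248 and 120 CPM against 280, 186, 47.1, 57.5 and 259.7 CPM (0.21, SE 0.56, adjusted p = 0.895, or -0.28 without the pair and -0.22 without knockout 42). Col11a2, its partner chain, was at 43.3 to 102 CPM in knockouts and 41.5 to 83.1 CPM in wild types (0.03). Of the other type IX chains, Col9a2 averaged 167 and 124 CPM (0.43, adjusted p = 0.489) and Col9a3 91.1 and 122 CPM (-0.42, adjusted p = 0.734, or -0.82 without wild-type 32 and 35). Col9a3 overlaps the coding gene Tcfl5, so its reads could belong to either. Cartilage markers summed to 17.7 to 188 CPM in wild types and 50.5 to 226 CPM in knockouts, and were lowest in wild-type 35 and 32. Their part was not tested. The bar chart of class and marker sums gives both lists by library.

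**Figure D3:**
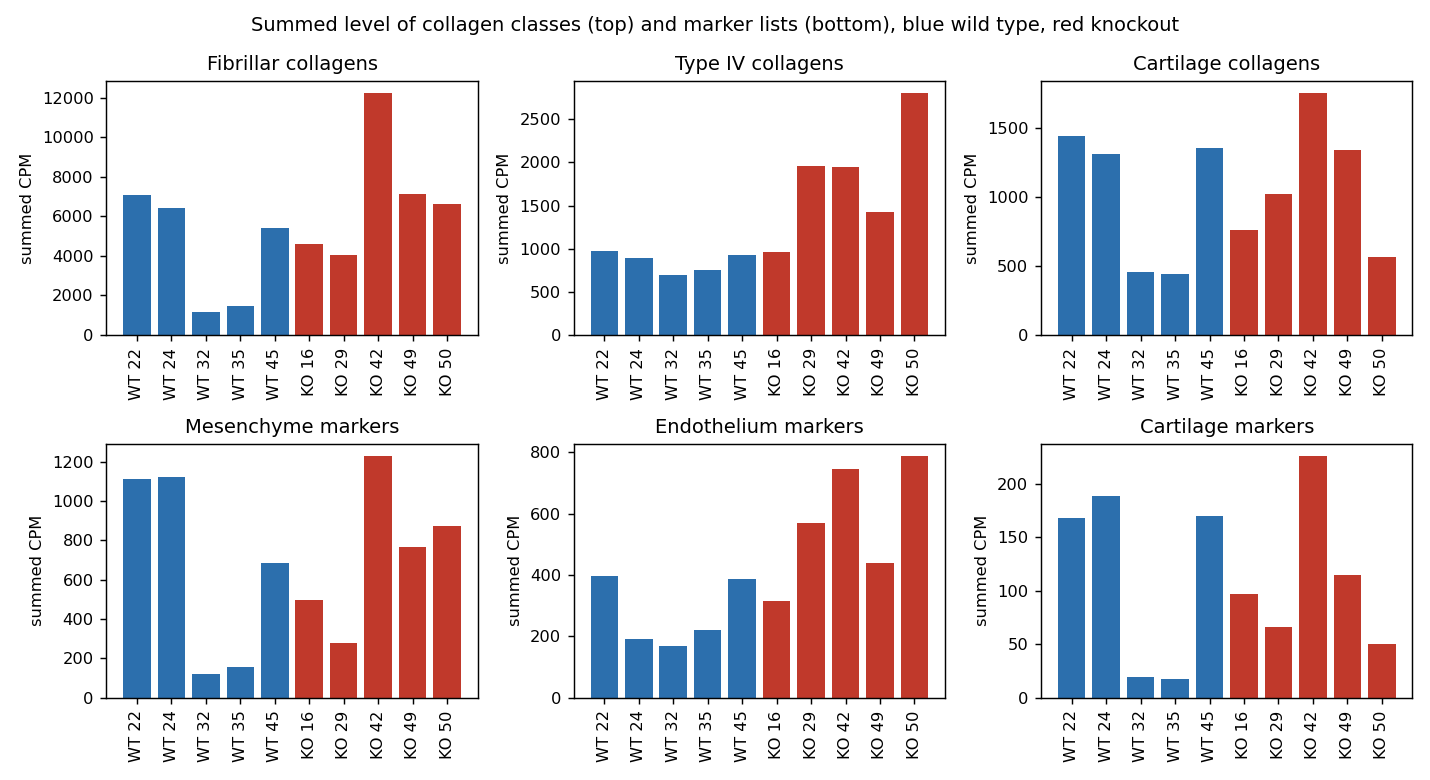
Summed CPM (y axis, from 0) of fibrillar, type IV and cartilage collagens in the top row and of mesenchyme, endothelium and cartilage markers in the bottom row, 1 bar per library, wild type in blue and knockout in red. Fibrillar and mesenchyme sums share their lowest libraries, wild-type 32 and 35.

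Several of the remaining FACIT and short-chain collagens had wide spreads within each genotype. Col12a1, which coats fibrils, was at 92.3 to 1246 CPM in knockouts and 29.6 to 610 CPM in wild types. Col14a1 was at 10.9 to 249 CPM in knockouts and 55.3 to 135 in wild types. Col8a2 of the short-chain network ran from 36.8 to 351 and from 6.48 to 222 CPM. Its partner Col8a1 ran from 2.12 to 80.4 and from 1.56 to 37.2 CPM. Col16a1, a FACIT collagen, was at 80.0 to 568 CPM in knockouts and 40.6 to 277 CPM in wild types (log2 fold change 0.59, adjusted p = 0.707, or 0.11 without wild-type 32 and 35). Without knockout 42, log2 fold changes were -0.11 for Col16a1, -0.09 for Col12a1 (from 0.63), -0.91 for Col14a1 (from -0.02), -0.95 for Col8a1 (from 0.37) and -0.31 for Col8a2 (from 0.30). The sign thus turned in 4 of these 5 genes without this library. Without wild-type 32 and 35 the log2 fold changes were 0.05 for Col12a1, -0.28 for Col14a1, -0.22 for Col8a1 and -0.31 for Col8a2. Col19a1 averaged 2.68 and 3.23 CPM (-0.32). Col26a1, outside the named classes, was at 178 to 352 CPM in knockouts and 79.5 to 284 CPM in wild types (0.45, adjusted p = 0.587). Across the wild types, the highest library exceeded the lowest 34.3-fold for Col8a2 and 16.9-fold for Col1a1, but 1.33-fold for Col4a1. The median over 11055 tested genes with a mean of at least 10 CPM was 1.55-fold. Without wild-type 32 and 35 the Col1a1 span was 1.32-fold. In the knockouts the Col1a1 span was 3.96-fold and that of Col4a1 2.92-fold. Wild-type 32 was the lowest library for 23 of the 42 collagens and knockout 42 the highest for 22. Col20a1, a FACIT collagen, was highest in knockout 29 at 65.6 CPM and in wild-type 24 at 45.6 CPM, the other libraries lying at 10.7 to 21.98 CPM.

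**Figure D4:**
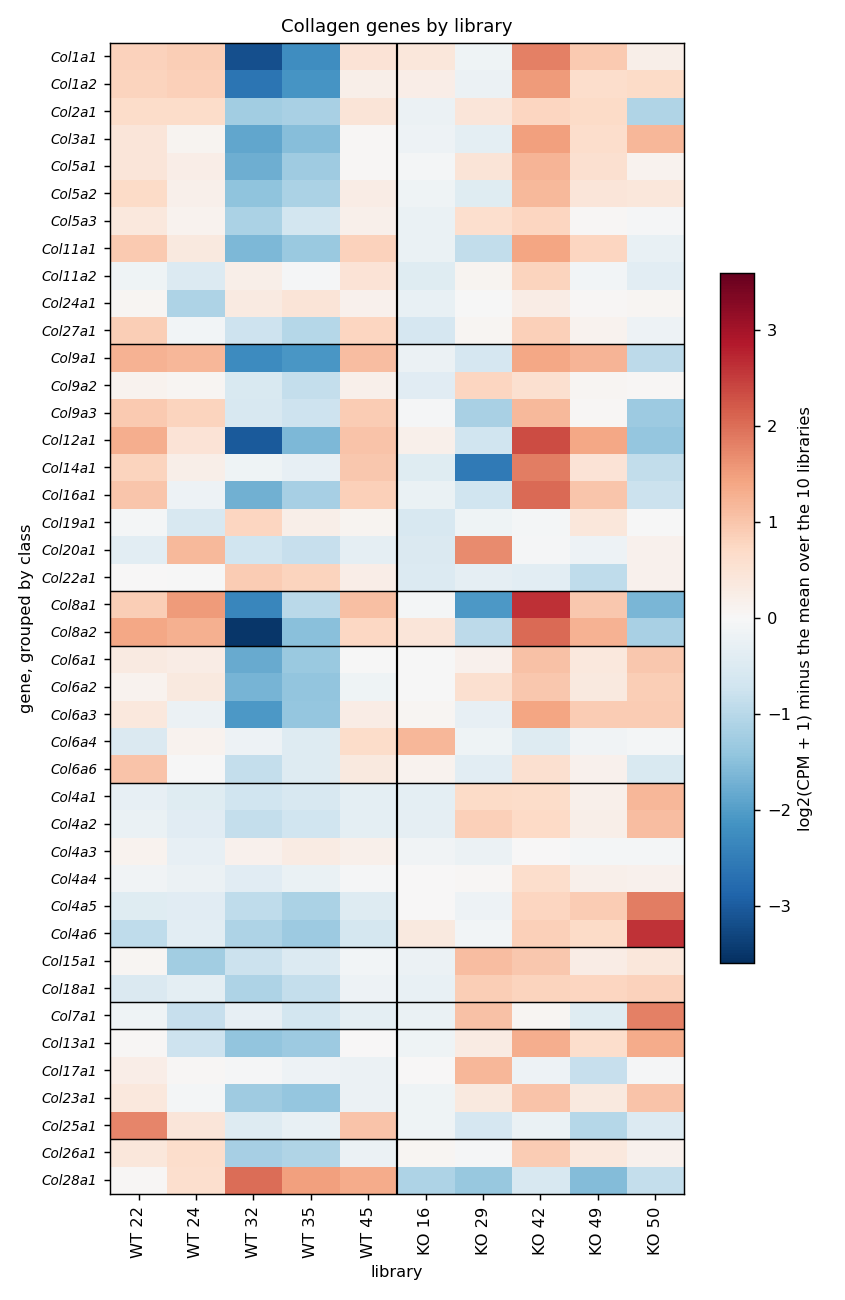
Log2(CPM + 1) of the 42 collagens tested minus the mean over the 10 libraries, rows grouped by class, with wild types left and knockouts right of the black line. Wild-type 32 and 35 are blue in most fibrillar and type VI rows, as in Col1a1 at 103 and 197 CPM, and the rows of Col4a1 and Col4a2 are red in every knockout column other than 16.

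The scaling of a library cancels in ratios within it, apart from the 0.5 CPM added, but a ratio can still differ with the library's collagen share. In all, 4 ratios were compared with an exact two-sided permutation test, whose smallest possible p is 0.00794. Col1a1 over Col1a2 averaged 0.12 ± 0.33 in knockouts and 0.01 ± 0.30 in wild types (log2, SD, n = 5 each, exact p = 0.5, adjusted 0.667). Col4a1 over Col4a2 was 0.62 ± 0.08 and 0.69 ± 0.09 (exact p = 0.190, adjusted 0.381). The linear ratio ran from 0.723 to 1.28 over all libraries for the type I chains and from 1.42 to 1.75 for the type IV chains, so the second varied less. The type I difference, 0.12, was -0.06 without wild-type 32 and 35. Col2a1 over Col1a1, cartilage over interstitial, was -1.67 ± 0.75 and -0.64 ± 0.95 (exact p = 0.0873, adjusted 0.349), and the difference shrank from -1.04 to -0.38 without wild-type 32 and 35. In that pair, which had the lowest collagen shares, the linear ratio was 1.70 and 0.945, against 0.385 to 0.443 in the other wild types. Col4a1 over Col1a1, basement membrane over interstitial, was -0.61 ± 1.01 and -0.29 ± 1.76 (exact p = 0.683, adjusted 0.683). In wild-type 32 and 35 the linear Col4a1 to Col1a1 ratio was 4.03 and 2.31, against 0.293 to 0.410 in the other wild types, and without these 2 the difference of means turned from -0.32 to 0.94. It was 0.25 without wild-type 32 alone and 0.05 without wild-type 35 alone.

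Genes that make and handle collagen were also counted. An unadjusted p under 0.05 was found for 13.1% of all genes, 6.4% with higher and 6.73% with lower knockout means. Of 30 biosynthesis genes, such as chaperones and cross-linking enzymes, 1 had an unadjusted p under 0.05 with a higher knockout mean and 2 with a lower one, none was called, and the median log2 fold change was 0.24. The collagen chaperone Serpinh1 was at 1016 ± 280.0 CPM in knockouts and 728 ± 383 CPM in wild types, the prolyl hydroxylase subunit P4hb at 575 ± 113 and 536 ± 167 CPM, and the procollagen protease Bmp1 at 206 ± 54.7 and 249.6 ± 75.9 CPM. The biosynthesis count is near the share of all genes. Of 12 receptors, 3 had such a p on the higher side and 1 on the lower, Adgrg1, a receptor for type III collagen, at 89.4 ± 61.6 CPM in knockouts and 223 ± 55.5 CPM in wild types (log2 fold change -1.31, adjusted p = 0.205). Itgb1, the shared integrin subunit, was at 479.9 ± 115 and 468 ± 62.0 CPM, and Ddr2, a receptor kinase for fibrillar collagen, at 149 ± 85.8 and 111 ± 83.8 CPM. Of 11 collagenases and inhibitors, 9 could be tested and 3 had such a p, all on the higher side. The 3 of highest level were Timp3, Mmp15 and Mmp14, of which only Mmp14 had such a p. Timp3 was at 214 ± 59.4 and 215 ± 19.6 CPM, Mmp15 at 219 ± 118 and 168 ± 38.8 CPM and Mmp14 at 199.6 ± 44.4 and 132 ± 52.2 CPM. Mmp9, a gelatinase chosen after its values were seen, was at 19.3 to 32.3 CPM in knockouts and 3.36 to 11.7 CPM in wild types, with no overlap (log2 fold change 1.72, adjusted p = 0.0603). Of 11 fibril partners 1 had such a p, and it was not among the 3 of highest level. Of these 3, Sparc, a collagen-binding matrix protein, was at 1050 ± 310.3 and 710.4 ± 342 CPM. Fn1 was at 1038 ± 361 and 508 ± 333 CPM and Fbn2 at 383 ± 91.2 and 309 ± 192 CPM. None of these genes was called.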

How the data were processed

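RNA was sequenced from 10 trigeminal ganglion libraries. Each deposited file gives the unnormalized read count of every gene in 1 library. The submitters' processing notes list bcl2fastq (2.20.0.422), the aligner STAR (2.7.10a) and the counter featureCounts (1.5.0-p1). Which annotation was counted, whether strand was used and how multimapping reads were handled is not given in the sources used. Of the 44 collagens, 28 overlap another annotated gene, 5 of them a coding one.

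Symbols came from an ID table, and biotypes and exon lengths (all exons of a gene merged) from GENCODE M21 (GRCm38). Promoter sequences are from RefSeq (GRCm38.p6), and 35 collagens matched. Genes were kept with filterByExpr (minimum count 10), scaled with TMM and compared with edgeR's quasi-likelihood test on 18005 genes, with Benjamini-Hochberg adjustment over all of them and a threshold of 0.05. Adjusted p-values of genes are from that fit unless another tool or a left-out library is named. Fits that leave libraries out repeat the filter and adjust over the genes they keep. Adjusted p-values of ratios are over the 4 ratios. Ratios used CPM plus 0.5. The fit was tested on simulated data. R 4.3.3 was used with DESeq2 1.42.0, limma 3.58.1 and edgeR 4.0.16.

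Described in full were the members past the threshold, the 4 with the largest change each way, and fixed reference members. Of each pathway list, the 3 genes of highest level were named, since none passed the threshold. Lama1, Lamc3, Nid2 and Mmp9 were added after their values were seen. Marker lists are given as sums. The members and lists were chosen with earlier results of these data known. Alternatives were RLE factors, DESeq2, limma voom with sample weights, no filter, and leaving out libraries. Floors cover counting error only.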

Additional observations from a re-analysis of the deposited data

Results flagged for a closer look

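In 8 of 84 groups of 5 libraries, one library stood apart from the other 4 of its genotype by more than a Dixon gap test allows. The test's own rate of about 1 in 20 groups holds for normal and independent values. CPM were not transformed and the groups share the same 10 libraries, so the count cannot be set against that rate. Col4a6 in knockout 50 was at 76.8 CPM, the other knockouts at 11.02 to 22.4 CPM. Col18a1 in knockout 16 was the lowest of its group at 208 CPM, the others at 427 to 465 CPM. Col4a4 in knockout 42 was at 3.13 CPM, the others at 1.66 to 2.03 CPM. Col8a1 in knockout 42 was at 80.4 CPM, the others at 2.12 to 24.6 CPM.

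Col20a1 stood apart in both genotypes, at 65.6 CPM in knockout 29 (others 13.45 to 21.98 CPM) and at 45.6 CPM in wild-type 24 (others 10.7 to 15.5 CPM). Col17a1 in knockout 29 was at 3.15 CPM against 0 to 0.800 CPM. Col6a4 in knockout 16 was at 2.96 CPM against 0.249 to 0.629 CPM. Values of Col17a1, Col6a4 and Col4a4 rest on few counts, with 219, 239 and 421 over all libraries.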

How the results depend on the processing

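Over all genes, the number called higher was 17 and became 354 with DESeq2, 1264 with limma voom, 55 with no filter, 0 without wild-type 32 and 35 and 6 without knockout 29 and 49, and ranged from 2 to 35 when each library was left out. The number called lower was 67 and became 248 with DESeq2, 1080 with limma voom, 102 with no filter and 19 without wild-type 32 and 35, with 27 to 88 when each library was left out. No collagen was called higher in the main edgeR fit, against 7 with DESeq2 and 14 with limma voom. The voom sample weights were highest among the wild types in 32 and 35. They were lowest of all libraries in wild-type 24 and knockout 29. With these weights the collagen median log2 fold change was 0.92, against 0.12 in edgeR without wild-type 32 and 35. The part of the weights in the voom calls was not tested. Other edgeR fits called 3 with no filter (Col18a1, Col4a5 and Col4a6), and 0 to 3 when each library was left out. The 3 were Col18a1, Col4a1 and Col4a2, without knockout 16. The 1 collagen called lower became 2 with limma voom (Col22a1 and Col28a1), 0 without wild-type 32 and 35 or without knockout 29 and 49, and 0 to 1 when each library was left out. The causes were not tested, beyond smaller groups in the fits that leave libraries out. With DESeq2 the median log2 fold change was 0.16 over 39450 genes, since no count filter was used. In edgeR it was -0.01 over 39450 genes with no filter and -0.03 over the 18005 of the main fit. The collagen median was 0.52 over 44 genes with DESeq2 and 0.50 over 42 in the main fit. No paired analysis was possible because no replicate number occurs in both genotypes. Depth limits the lowest members most in knockout 49.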
